A study of Mus musculus with 16 samples.

Results

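The 8 genes described here, of the 25006 in the count files, encode the subunits of 2 families of potassium channels that are gated by signals inside the cell. Kcnj3, Kcnj5, Kcnj6 and Kcnj9 encode G protein-gated inward rectifier (GIRK) subunits. Kcnj8 and Kcnj11 encode the pores, and Abcc8 and Abcc9 the sulfonylurea receptors, of the ATP-sensitive (K-ATP) channels. The genes were taken by name, by a rule that held no levels, and matched to their Ensembl identifiers. Earlier results of these data were known when they were chosen. The libraries hold the polyA RNA that came down with tagged ribosomes (RiboTag) of dopaminergic neurons of the substantia nigra pars compacta (SNc) in 16 mice, and the question for these channels was which subunits the neurons used and whether that differed when the mitochondrial calcium uniporter gene Mcu was deleted. Controls were 8 DAT-Cre +/- mice and the other 8 had the genotype DAT-Cre+/- MCU fl/fl, called MCU-KO, in which Cre made under the dopamine transporter gene Slc6a3 removes Mcu. All 16 mice carried DAT-Cre, were injected in the SNc with an AAV whose Cre-dependent construct makes the tagged ribosomal protein Rpl22l1, and were taken at postnatal day 45, 30 days after the injection. Controls came from a cross of DAT-Cre mice with C57/BL6 mice and not from the floxed line, so the floxed allele with its linked background and the loss of Mcu cannot be told apart here.

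GIRK channels are assembled from several Kcnj subunits and open when beta-gamma dimers, released from inhibitory (Gi/o) G proteins, bind to them. In midbrain dopaminergic neurons they carry the hyperpolarizing current evoked by D2 dopamine autoreceptors and GABA-B receptors. K-ATP channels join a ring of pore subunits to a ring of sulfonylurea receptors, close when ATP is high and open when ATP falls and ADP rises, and so tie the membrane potential to the energy state of the cell. Kcnj11 with Abcc8 is the combination best known from pancreatic beta cells and many neurons, and Kcnj8 with Abcc9 the one best known from pericytes and vascular smooth muscle.

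The pore genes share a stretch of coding sequence, shown because it marks the 6 genes as a family and because near-identical sequence would let reads pass between members. It is 45 bases of coding sequence around the potassium selectivity filter, read 5′ to 3′ in the direction of the gene from GENCODE transcripts on GRCm38, with the 15 bases of the filter codons in capitals.
Kcnj3, chr2:55437612-55437656, plus strand, exon 2 of 4: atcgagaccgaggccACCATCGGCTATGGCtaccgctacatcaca
Kcnj5, chr9:32322544-32322588, minus strand, exon 3 of 4: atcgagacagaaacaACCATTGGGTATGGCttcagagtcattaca
Kcnj6, chr16:94832762-94832806, minus strand, exon 3 of 4: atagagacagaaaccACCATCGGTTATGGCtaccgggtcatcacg
Kcnj9, chr1:172326169-172326213, minus strand, exon 3 of 4: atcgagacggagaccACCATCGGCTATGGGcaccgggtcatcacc
Kcnj8, chr6:142566433-142566477, minus strand, exon 3 of 3: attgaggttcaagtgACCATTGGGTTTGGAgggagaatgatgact
Kcnj11, chr7:46099481-46099525, minus strand, exon 1 of 1: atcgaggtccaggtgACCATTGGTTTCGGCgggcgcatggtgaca
Of these 45 bases, Kcnj9 shared 38 with Kcnj6, while Kcnj3 and Kcnj5 each shared 36. The K-ATP pores stood apart from the GIRK genes, with 24 bases shared with Kcnj6 by each of Kcnj8 and Kcnj11 and 35 bases shared between the pair. Over the whole aligned coding sequence Kcnj6 was 72.2% identical to Kcnj9 and Kcnj8 was 75.0% identical to Kcnj11. No stretch of 50 bases was shared between any 2 members, so no read matching such a stretch exactly could have come from another member.

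The libraries held 14129527 to 22016362 counts, the smallest being MCU-KO mouse 8, and 3 counts in a library corresponded to 0.136 to 0.212 CPM. All 12 dopaminergic markers looked for (Th and Slc6a3 among them) had counts in every mouse, and their summed normalized counts ran from 283874 to 365077 in control and from 243811 to 407063 in MCU-KO mice. Markers of other cells were present too. Oligodendrocyte markers summed to between 55876 and 127791 normalized counts per mouse, astrocyte markers to between 9186 and 21179, and microglial markers to between 999 and 5855. Markers of GABAergic neurons summed to between 4406 and 8747, and 6 of these 7 markers had counts in every mouse. None of the marker genes of any cell type was at 0 in every mouse. The part of these other cells, GABAergic neurons among them, in the levels of the channel genes was not tested. The targeted gene Mcu had 454 ± 274 normalized counts in control and 200 ± 139 in MCU-KO mice (SD, n = 8 each), the genotypes overlapped, and the difference of -1.19 on the log2 scale did not pass the edgeR quasi-likelihood test over all genes (adjusted p = 1.00). The authors verified the knockout by a quantitative PCR assay aimed at Mcu transcripts in RiboTag RNA, and by reduced calcium uptake of the mitochondria. In bulk libraries such as these, fewer cells with an mRNA and less of it per cell cannot be told apart.

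Among the GIRK genes, Kcnj6 (GIRK2) and Kcnj9 (GIRK3) were the abundant subunits, Kcnj3 (GIRK1) was lower, and Kcnj5 (GIRK4) was without counts in all mice but 1. Among the K-ATP genes, Kcnj11 was present in every mouse, Abcc8 was lower and very uneven, and Kcnj8 and Abcc9 were present in some mice and at 0 in others. Of the 8 genes, 5 had enough counts to be tested between the genotypes and none of these passed. The values below are normalized counts, that is counts scaled for library size and composition by the median-of-ratios factors of DESeq2. Levels of different genes are compared only after division by exon length in kilobases.

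Kcnj6 (ENSMUSG00000043301, chromosome 16, 94748636 to 94997701, minus strand) encodes the subunit that can form functional GIRK channels alone and brings its partners to the membrane. In control mice its normalized counts had a lowest value of 364.8, a median of 815 and a highest value of 1010.1. In MCU-KO mice they had a lowest value of 297, a median of 594 and a highest value of 1103.7. The lowest and the highest MCU-KO mouse lay outside the control range, and 1 of 8 MCU-KO mice was above the control median. The second highest, MCU-KO mouse 2, had 784. The means were 752.5 ± 189 and 609.8 ± 266 (SD, n = 8 each), a log2 fold change of -0.30 (SE 0.27, 95% interval -0.87 to 0.26), which did not pass the edgeR quasi-likelihood test (unadjusted p = 0.28, Benjamini-Hochberg adjusted p = 1.00). Across all genes tested, 22 of 12390 (0.178%) were called at an adjusted p under 0.05, with 0.0888% higher and 0.0888% lower in MCU-KO mice, and 4.41% had an unadjusted p under that value.

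Kcnj9 (ENSMUSG00000038026, chromosome 1, 172320501 to 172329318, minus strand) encodes a subunit that joins the other GIRK subunits and lowers the number of channels at the surface. Its normalized counts in control mice had a lowest value of 124, a median of 353 and a highest value of 988. Those in MCU-KO mice had a lowest value of 303, a median of 559 and a highest value of 645. The spread lay on the control side: controls 1, 2, 4 and 7 were under every MCU-KO mouse and controls 3 and 8 were above every one, giving a coefficient of variation of 75.1% against 27.8% in MCU-KO mice. Kcnj6 had the opposite order, with 25.1% in control and 43.7% in MCU-KO mice, and no test was made of these spreads. The means of Kcnj9 were 399 ± 300 and 492 ± 137 (SD, n = 8 each), with a log2 fold change of 0.30 (SE 0.40, 95% interval -0.52 to 1.12, edgeR adjusted p = 1.00).

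Kcnj3 (ENSMUSG00000026824, chromosome 2, 55435970 to 55598145, plus strand) encodes the subunit that gives heteromeric GIRK channels their large currents and does not reach the membrane without a partner. Its normalized counts ran from 78.6 through a median of 96.9 to 303.7 in control mice. The same gene ran from 5.85 through a median of 194 to 365.8 in MCU-KO mice. The lowest value belonged to MCU-KO mouse 2, with 6 counts in a library of 19897268, and the other 7 MCU-KO mice were all above the control median. The log2 fold change was 0.48 (SE 0.63, 95% interval -0.83 to 1.79, edgeR adjusted p = 1.00). A lincRNA on the opposite strand, Gm26794, covers 31.1% of the exon bases of Kcnj3 in the annotation. Whether the counting used strand is not given in the sources used here, so reads of these 2 genes cannot be told apart in that stretch.

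Kcnj5 (ENSMUSG00000032034, chromosome 9, 32314707 to 32344350, minus strand) encodes the GIRK subunit best known from the atrium of the heart. It had 139 counts (128.5 normalized) in control mouse 5 and 0 in the other 15 mice. In the 7 control mice without a count, Kcnj6 per kilobase was at least 76.9-fold to at least 235-fold higher than the level that 3 counts of Kcnj5 would give. In the 8 MCU-KO mice the same bound ran from 58.9-fold to 235-fold. In control mouse 5 Kcnj5 was below Kcnj6 by a log2 ratio per kilobase of -1.97. The bounds take a 0 of Kcnj5 as up to 3 counts and cover counting error only. The gene was left out of the test for low counts, and in a fit without that filter its unadjusted p was 0.0106 and its adjusted p 0.198 (edgeR), a value that rests on the single control mouse.

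The plot of normalized counts by mouse sets the 8 genes side by side and shows the 3 kinds of pattern: present in all mice, present but with some mice near 0, and present in a few mice.

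**Figure D1:**
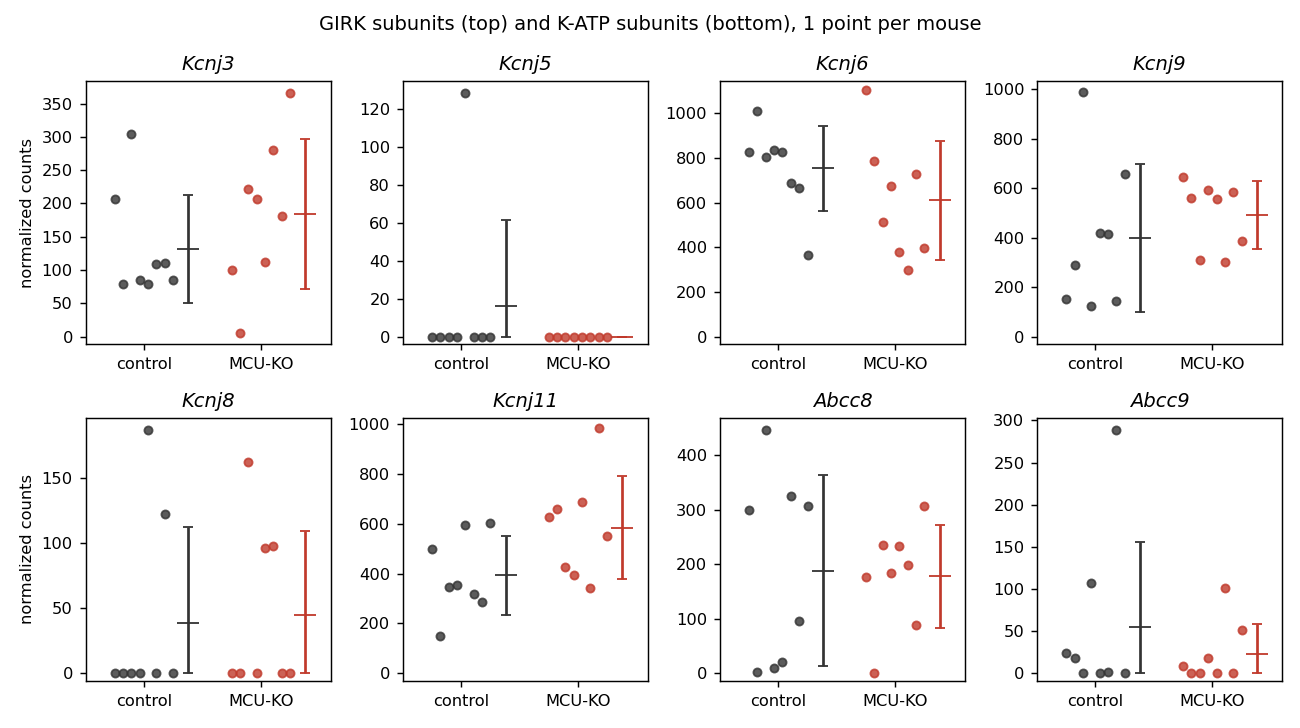
Normalized counts (y axis, linear, separate scale per gene) of the 4 GIRK genes in the top row and the 4 K-ATP genes in the bottom row, with 1 point per mouse for 8 control and 8 MCU-KO mice, and beside them the mean with 1 SD (lower bars end at 0 where they would go below it). Kcnj6, Kcnj9 and Kcnj11 had counts in every mouse, and Kcnj5 was at 0 in all but control mouse 5. The genotypes overlapped for all 8 genes, as for all but 0.258% of the genes tested.

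Within each control mouse the GIRK subunits were compared per kilobase of exon as a log2 ratio of counts plus 1, for which the library size matters only where a gene is at or near 0. Kcnj3 was below Kcnj6 in 8 of 8 control mice, by a mean log2 ratio of -2.08 ± 0.78 (SD, exact two-sided sign-flip permutation p = 0.00781, adjusted over 10 pairs 0.0156), and 0.00781 is the smallest p that 8 mice can give. It was below Kcnj9 in 7 of 8 control mice, by -1.70 ± 1.14 (exact permutation p = 0.0156, adjusted 0.0223). Kcnj9 and Kcnj6 could not be ordered in control mice: the mean log2 ratio of Kcnj9 to Kcnj6 was -0.38 ± 1.31, with Kcnj9 lower in 5 of 8 mice (exact permutation p = 0.422, adjusted 0.469). As shares of the summed GIRK level per kilobase, Kcnj6 made up 48.5% ± 17.6, Kcnj9 38.5% ± 19.0, Kcnj3 11.6% ± 5.26 and Kcnj5 1.38% ± 3.90 in control mice (SD, n = 8).

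In MCU-KO mice the order of the leading pair turned on the length used. Per kilobase of all exons, Kcnj9 was above Kcnj6 in 8 of 8 mice, with a mean log2 ratio of 0.59 ± 0.44 (SD, exact sign-flip permutation p = 0.00781, adjusted 0.00977), and its share of the GIRK level was 49.6% ± 8.13 against 33.6% ± 8.71 for Kcnj6. Kcnj3 was below Kcnj6 in 6 of 8 MCU-KO mice, by -1.60 ± 2.19 (SD, exact permutation adjusted p = 0.0434), with mouse 2 at -6.30 and mice 6 and 8 above 0. The test between the genotypes did not pass, however: the ratio of Kcnj9 to Kcnj6 differed by 0.97 on the log2 scale (exact permutation over 12870 splits of the 16 mice, p = 0.0671, adjusted over 10 pairs 0.542), and none of the 10 pairs differed between genotypes at an adjusted p under 0.05. Kcnj6 has 7633 exon bases over all its transcripts and 3627 in its longest coding transcript, against 4288 and 3857 for Kcnj9. With the longest coding transcript as the length, Kcnj9 was below Kcnj6 in 6 of 8 control mice, by -1.30 ± 1.31 (SD, exact permutation adjusted p = 0.0488), and in 7 of 8 MCU-KO mice, by -0.33 ± 0.44 (exact permutation adjusted p = 0.0781). The shares of the GIRK level were then 63.0% ± 17.3 for Kcnj6 and 28.8% ± 17.4 for Kcnj9 in control mice. The difference between the genotypes does not depend on the length, which is the same in both.

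Kcnj11 (ENSMUSG00000096146, chromosome 7, 46093953 to 46100764, minus strand) encodes the K-ATP pore of beta cells and neurons and has its coding sequence in a single exon. In control mice its normalized counts had a lowest value of 151, a median of 350 and a highest value of 603.5. In MCU-KO mice they had a lowest value of 341, a median of 589 and a highest value of 983. Of the MCU-KO mice 7 of 8 were above the control median, control mouse 2 was the lowest of all 16 and MCU-KO mouse 7 the highest, and the ranges overlapped between 341 and 603.5. The means were 394 ± 159 and 584 ± 207 (SD, n = 8 each), a log2 fold change of 0.57 (SE 0.31, 95% interval -0.07 to 1.21, corresponding to 0.951-fold to 2.31-fold). This was the smallest p among the tested members and did not pass (edgeR unadjusted p = 0.0794, adjusted p = 1.00). DESeq2 gave the same log2 fold change of 0.57 with an adjusted p of 0.91. The unadjusted edgeR p went under 0.05 when control mouse 5, control mouse 8 or MCU-KO mouse 6 was left out (0.0443, 0.0436 and 0.0495), and the adjusted p stayed between 0.517 and 1.0 over all alternatives tried.

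Abcc8 (ENSMUSG00000040136, chromosome 7, 46104523 to 46180033, minus strand) encodes the sulfonylurea receptor SUR1, which gives the channel its response to ADP and to sulfonylurea drugs. It lies 3758 bases from Kcnj11 on the same strand. Its counts were the most uneven of the tested members in control mice, with a coefficient of variation of 93.1%, and in MCU-KO mice it had 53.2% beside 60.9% for Kcnj3. Control mice had a lowest value of 1.76 normalized counts, a median of 198 and a highest value of 447, and MCU-KO mice a lowest value of 0, a median of 191.5 and a highest value of 306. Control mice 2, 4 and 5 had 2, 11 and 23 counts and MCU-KO mouse 2 had 0, while the other 12 mice had 92 counts or more. The mean was 188.5 ± 175.5 in control and 178 ± 94.9 in MCU-KO mice (SD, n = 8 each), and the log2 fold change of -0.08 (SE 0.90, 95% interval -1.95 to 1.78, edgeR adjusted p = 1.00) had no stable sign. It was 0.11 without MCU-KO mouse 2 and 0.83 by limma-voom with quality weights.

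The pore stood above its receptor in every mouse. The mean log2 ratio of Abcc8 to Kcnj11 per kilobase was -3.46 ± 2.50 in control mice (SD, lower in 8 of 8, exact sign-flip permutation p = 0.00781, adjusted 0.0156) and -3.61 ± 2.94 in MCU-KO mice (lower in 8 of 8, exact permutation adjusted p = 0.00977). The ratio ran from -6.98 to -0.77 in control mice, so that the size of the gap differed far more between mice than its direction. Between genotypes it differed by -0.16 (exact permutation p = 0.91, adjusted 0.984).

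Kcnj8 (ENSMUSG00000030247, chromosome 6, 142564837 to 142571614, minus strand) encodes the vascular pore and Abcc9 (ENSMUSG00000030249, chromosome 6, 142587862 to 142702315, minus strand) the receptor SUR2, and the genes lie 16247 bases apart. Kcnj8 had 202 and 119 counts in control mice 5 and 7, 176, 99 and 108 counts in MCU-KO mice 3, 5 and 6, and 0 in the other 11 mice. It was thus either at 0 or near 100 counts and above, with nothing between. Kcnj11 per kilobase was above Kcnj8 in 8 of 8 control mice (exact sign-flip permutation p = 0.00781, adjusted 0.0156) and in 8 of 8 MCU-KO mice. In the 6 control mice with no Kcnj8 count the bound on Kcnj11 over Kcnj8 ran from at least 39.5-fold to at least 144-fold. In the 5 such MCU-KO mice it ran from at least 91.9-fold to at least 234-fold. These bounds take a 0 as up to 3 counts and cover counting error only. Where Kcnj8 had counts, the log2 ratio of Kcnj8 to Kcnj11 per kilobase was -1.14 and -0.69 in control mice 5 and 7. In MCU-KO mice 3, 5 and 6 it was -0.86, -2.30 and -1.26.

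Abcc9 had counts in 5 of 8 control and 4 of 8 MCU-KO mice, with 281 counts in control mouse 7, 123 in control mouse 4 and 111 in MCU-KO mouse 6, and at most 37 in the others. Its level per kilobase was above that of Abcc8 in 3 of 8 control mice and in 0 of 8 MCU-KO mice. The mean log2 ratio of Abcc9 to Abcc8 was -3.10 ± 5.01 in control mice (SD, exact permutation p = 0.125, adjusted 0.156) and -4.23 ± 3.06 in MCU-KO mice (exact permutation adjusted p = 0.00977), and it differed between genotypes by -1.13 (exact permutation p = 0.587, adjusted 0.887). The MCU-KO value counts mouse 2, where both genes were at 0 and the ratio of -0.05 comes from the exon lengths alone. The 3 control mice with more Abcc9 were mouse 2 (20 counts of Abcc9 beside 2 of Abcc8), mouse 4 (123 beside 11) and mouse 7 (281 beside 93).

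Kcnj8 had counts in 5 of 16 mice and Abcc9 in 9 of 16. Both had counts in 2 mice, control 7 and MCU-KO 6, Kcnj8 alone in 3, Abcc9 alone in 7 and neither in 4. Whether the 2 genes went together more or less often than their separate numbers imply was not tested. The 10 pericyte and smooth muscle markers summed to 490.8 to 801.6 normalized counts in control and to 272 to 1259.1 in MCU-KO mice, with 2 of the 10 counted in every mouse. Of the mice with Kcnj8, control 5 (490.8) and MCU-KO 3 (272) had the lowest marker sums of their genotype, control 7 (801.6) and MCU-KO 5 (1259.1) the highest, and MCU-KO 6 had 919.5. Of the 3 mice with most Abcc9, control 7 (281 counts) had the sum of 801.6, control 4 (123 counts) had 604.2 and MCU-KO 6 (111 counts) had 919.5. The part of these cells in the counts of Kcnj8 and Abcc9 was not tested.

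Presence in some mice and 0 in others was the rule for genes at the level of Kcnj8 and Abcc9, and less so at higher levels. Of the 2041 genes with a mean of 30 to 100 normalized counts, the class of Kcnj8 and Abcc9, 90.5% were at 0 in at least 1 mouse and 89.1% had in addition a mouse above 100. The median number of mice at 0 in this class was 4 of 16. Kcnj8 was at 0 in more mice than that, with counts in 5 of 16, and so was Abcc9, with counts in 9. Kcnj5 had a lower mean than the classes given here. Of the genes with a mean of 100 to 300, the class of Kcnj3 and Abcc8, 43.2% were at 0 in at least 1 mouse. In the class of 300 to 1000, which holds Kcnj6, Kcnj9 and Kcnj11, the share was 2.03% of 3840 genes.

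Per kilobase of exon, the order of the 8 genes in control mice was Kcnj11 (107 ± 43.2 normalized counts per kilobase), Kcnj6 (98.6 ± 24.7), Kcnj9 (93.1 ± 69.9), Kcnj3 (25.3 ± 15.6), Abcc8 (23.3 ± 21.7), Kcnj8 (15.2 ± 28.9), Abcc9 (6.57 ± 12.1) and Kcnj5 (3.43 ± 9.70; SD, n = 8). Over all exons the first 3 did not differ beyond their spread, since Kcnj11 exceeded Kcnj6 in 3 of 8 control mice and Kcnj6 exceeded Kcnj9 in 5 of 8. With the longest coding transcript as the length, Kcnj6 came first at 207.5 ± 52.1, above Kcnj11 (125 ± 50.5) in 7 of 8 control mice and above Kcnj9 (103.5 ± 77.7) in 6 of 8, so their order is not settled by these data. Over all exons, the step down to Kcnj3 was present in 7 of 8 mice, and Kcnj3 exceeded Abcc8 in 6 of 8. In MCU-KO mice the means per kilobase were 158.8 ± 56.3 for Kcnj11, 114.7 ± 31.9 for Kcnj9, 79.9 ± 34.9 for Kcnj6 and 35.3 ± 21.5 for Kcnj3, with Kcnj11 above Kcnj9 in 7 of 8 mice. Against all genes tested, Kcnj11 lay above 50.1%, Kcnj6 above 48.3% and Kcnj9 above 46.9% of genes per kilobase in control mice, whereas Kcnj3 and Abcc8 lay above 17.7% and 16.5%.

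**Figure D2:**
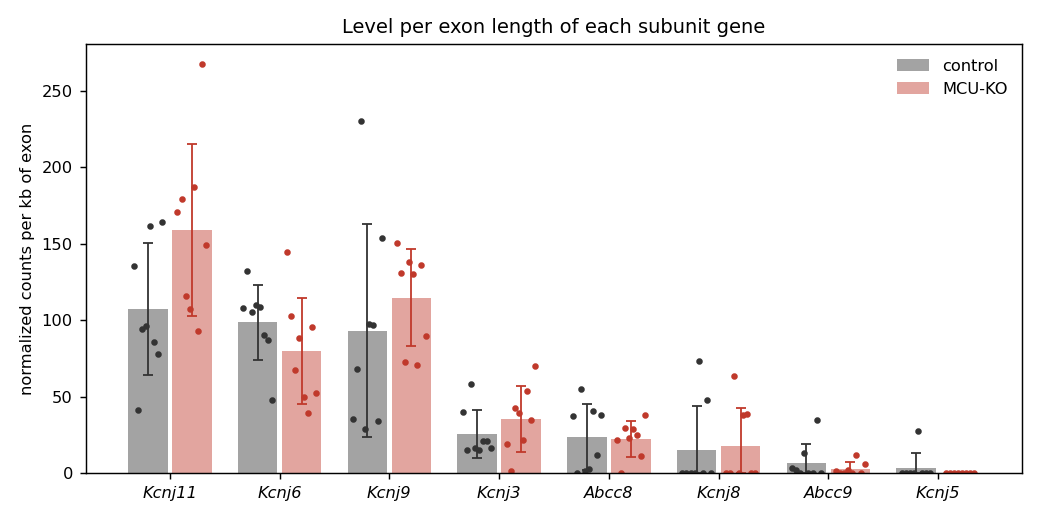
Mean normalized counts per kilobase of exon (y axis, linear, from 0) of the 8 genes in order of their control mean, with control bars in grey, MCU-KO bars in red, error bars of 1 SD (ending at 0 where they would go below it) and 1 point per mouse, 8 per genotype. Kcnj11, Kcnj6 and Kcnj9 stand at 93.1 to 107 in control mice, and the next gene, Kcnj3, at 25.3.

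Over all exons, 7 of the 10 subunit pairs differed within control mice and 9 of 10 within MCU-KO mice at an adjusted p under 0.05 (exact sign-flip permutation test). With the longest coding transcript as length, Kcnj9/Kcnj6 passed in control mice (same test, adjusted p = 0.0488) and not in MCU-KO mice (0.0781). The pairs share genes and so are not independent. Ratios that involve a gene at 0 take their size from the count of 1 that was added, so that only their direction can be read. The bounds given above cover counting error only. Of the genes with a mean of 30 to 100 normalized counts, 89.1% had a mouse at 0 and another above 100, so a 0 does not bound the level between libraries. The plot of ratios by mouse shows the GIRK pair Kcnj9/Kcnj6 on both sides of 0 in control mice and above 0 in all MCU-KO mice at this length. Abcc8/Kcnj11 and Kcnj8/Kcnj11 lay below 0 in every mouse, and Abcc9/Abcc8 lay above 0 in control mice 2, 4 and 7.

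**Figure D3:**
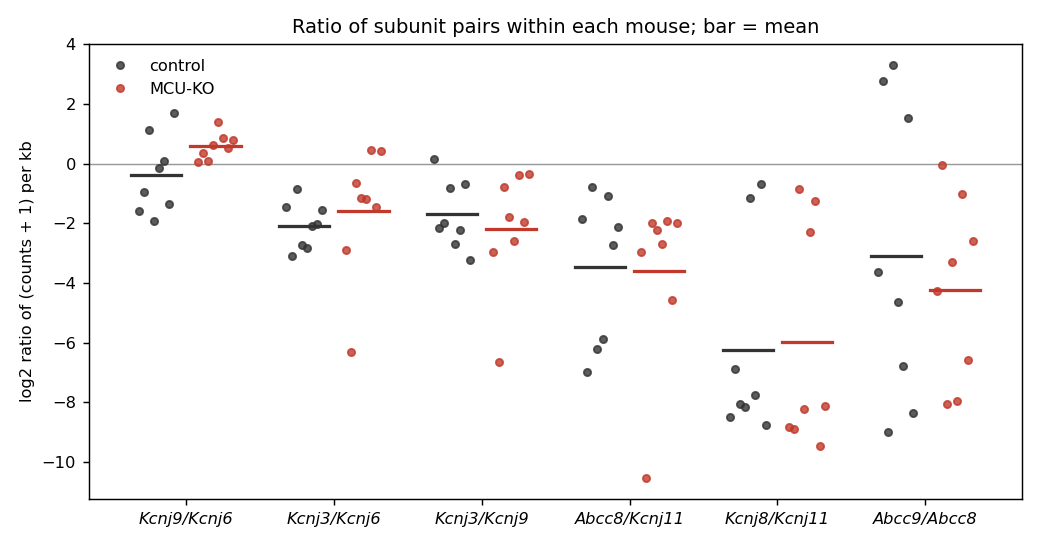
Log2 ratio of counts plus 1 per kilobase (y axis) for 6 subunit pairs (x axis), with 1 point per mouse for 8 control (grey) and 8 MCU-KO (red) mice and a bar at the mean, with length taken over all exons. Points below 0 have less of the first gene, and Kcnj9/Kcnj6 had means of -0.38 in control and 0.59 in MCU-KO mice with overlapping points.

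In the comparison of MCU-KO with control mice, 0 of the 5 tested members passed an adjusted p under 0.05, against 0.178% of all genes, and 0 of 5 had an unadjusted p under 0.05 by edgeR, against 4.41%. DESeq2 and limma-voom also called 0 members. The genotypes overlapped for 8 of 8 members. Overlap was the usual case, since only 0.258% of all genes tested had every mouse of one genotype above every mouse of the other. The untested members Kcnj5, Kcnj8 and Abcc9 had mice at 0 in both genotypes and so could not have been without overlap. Fold changes were above 0 for 3 and below 0 for 2 of the 5 tested members, with a median of 0.30 on the log2 scale, against 0.00 over all genes. The 95% interval lay within a 2-fold change in both directions for 1 of the 5, Kcnj6, and for 51.8% of all genes tested, so that for Kcnj3, Kcnj9, Kcnj11 and Abcc8 a 2-fold difference in at least 1 direction stayed inside the interval. The biological coefficient of variation estimated by edgeR was 39.2% for Kcnj6, 44.0% for Kcnj11, 55.4% for Kcnj9, 85.3% for Kcnj3 and 117% for Abcc8, beside 97.9% for the trend at the level of Abcc8.

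**Figure D4:**
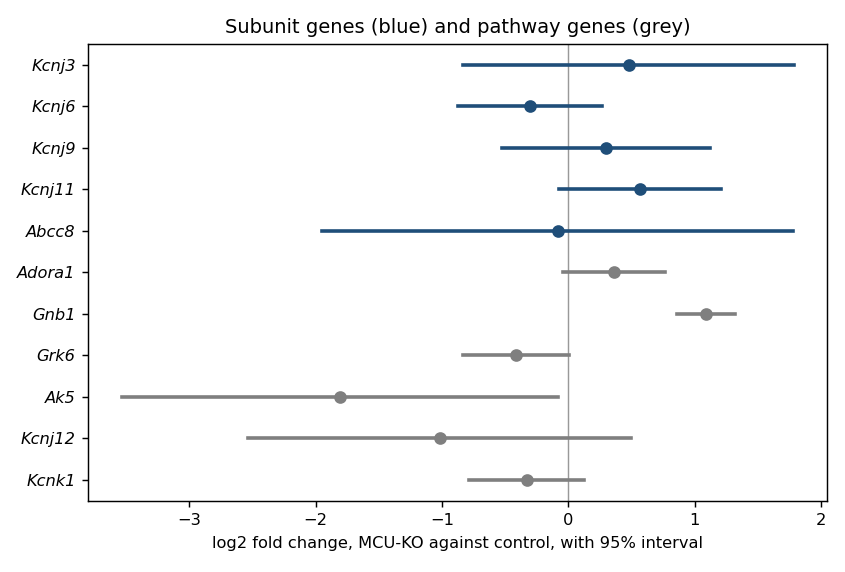
Log2 fold change of MCU-KO against control (x axis) with its 95% interval from edgeR for the 5 tested channel genes (blue) and for the named gene of each of 6 lists of related genes (grey), 8 mice per genotype. The intervals of all 5 channel genes include 0. That of Gnb1, from 0.86 to 1.32, lies above 0. That of Ak5, from -3.53 to -0.08, lies below 0, though Ak5 did not pass after adjustment over all genes.

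The genes on either side of the channels were read from the same fit. Their lists were drawn up with earlier results of these data known. Of the Gi/o-coupled receptors that can open GIRK channels, 17 of 24 were tested and 0 rose or fell at an adjusted p under 0.05 (edgeR, 0 also at an unadjusted p under 0.05). The gene with the smallest p was Adora1, the A1 adenosine receptor, with 1020.5 ± 234 normalized counts in control and 1312 ± 362 in MCU-KO mice (log2 fold change 0.36, SE 0.20, adjusted p = 1.00). Chosen after their values were seen, Drd2, the D2 autoreceptor, had 7348 ± 1058 and 6497 ± 1218 normalized counts, and the GABA-B receptor genes Gabbr1 and Gabbr2 had 13013 ± 1971 and 3194 ± 904 in control mice. In control mice the level per kilobase of Drd2 was 2885 ± 415 and that of Gabbr1 1676 ± 254. Kcnj6, the GIRK gene with the highest mean, had 98.6 ± 24.7, and Kcnj9, which could not be ordered against it over all exons, 93.1 ± 69.9.

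Of the G protein subunits, whose beta-gamma dimers open GIRK channels, 18 of 19 were tested, 1 rose and 0 fell. Gnb1, a beta subunit, had 6262 ± 1054 normalized counts in control and 13343 ± 1993 in MCU-KO mice, with a log2 fold change of 1.09 (SE 0.11, edgeR adjusted p = 3.25e-06) and no overlap between the highest control (7758) and the lowest MCU-KO mouse (10414). Over all genes tested, 0.178% were called and 0.258% had no overlap. The GIRK genes of the same libraries had the intervals given above. By edgeR 3 of the 18 G protein genes had an unadjusted p under 0.05, against 4.41% of all genes tested. Beside Gnb1 these were Gnb4 (log2 fold change 0.70) and Gng3 (-0.20), which went in opposite directions and did not pass after adjustment.

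Of the GIRK regulators, which include the RGS proteins that end G protein signals, the Kctd auxiliary proteins of GABA-B receptors and the receptor kinases, 21 of 23 were tested and 0 passed, with 0 at an unadjusted p under 0.05. The smallest p was that of Grk6, a receptor kinase, with 1512 ± 524 normalized counts in control and 1133 ± 216 in MCU-KO mice (log2 fold change -0.42, SE 0.20, edgeR adjusted p = 1.00). Of the adenylate and creatine kinases, which set the ADP that K-ATP channels sense, 7 of 9 were tested and 0 passed, with 1 at an unadjusted p under 0.05. It was Ak5, a neuronal adenylate kinase, at 316 ± 269 in control and 90.4 ± 78.2 normalized counts in MCU-KO mice (log2 fold change -1.81, SE 0.83, unadjusted p = 0.0413, edgeR adjusted p = 1.00).

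Among the other inward rectifier genes 4 of 9 were tested and 0 passed (edgeR, 0 at an unadjusted p under 0.05). Kcnj12, which encodes a constitutively open inward rectifier, had the smallest p, with 393 ± 166 and 194 ± 239 normalized counts (log2 fold change -1.02, SE 0.73, edgeR adjusted p = 1.00). Without MCU-KO mouse 2, the highest of its genotype, the log2 fold change was -1.79 (adjusted p = 1.0), and DESeq2 gave -1.56. Among the 2-pore potassium channel genes, which carry leak currents, 9 of 14 were tested and 0 passed, with 0 at an unadjusted p under 0.05. Kcnk1 had the smallest p, with 1235 ± 364 and 984 ± 271 normalized counts (log2 fold change -0.33, SE 0.22, edgeR adjusted p = 1.00). In control mice its level of 553 ± 163 per kilobase was above that of each GIRK and K-ATP gene, and Kcnj10, an inward rectifier best known from astrocytes and chosen after its values were seen, had 210.5 ± 73.4 per kilobase.

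Across the 16 mice, with log2 CPM centred within genotype, most pairs of the 5 tested members varied with little relation to each other. Kcnj3 and Abcc8 had the highest coefficient (Pearson r = 0.76, Spearman rho = 0.63), which was 0.55 without the 2 mice farthest from the median of Kcnj3, and MCU-KO mouse 2 was the lowest for both genes. Kcnj6 and Abcc8 had r = -0.45 with a Spearman rho of -0.62, similar in size to that of Kcnj3 and Abcc8 but negative. Kcnj6 and Kcnj9 had r = 0.05, and the adjacent pair Kcnj11 and Abcc8 r = 0.17. These are descriptions over 16 libraries in which each point shares its library, its depth and its mix of cells, and 10 pairs were computed.

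The genes whose levels followed the leading subunits most closely were looked for among the 10609 tested genes with a mean of at least 100 normalized counts. For Kcnj6 they were Hcrtr1, an orexin receptor (r = 0.84, rho = 0.78), Dusp15, a dual-specificity phosphatase (r = 0.79, rho = 0.71), and Zfp27, a zinc finger gene (r = 0.79, rho = 0.68). For Kcnj11 they were Def8 (r = 0.84, rho = 0.83), Nos1, the neuronal nitric oxide synthase (r = 0.78, rho = 0.69), and Smarca1, a chromatin remodeller (r = 0.78, rho = 0.74). Without the 2 mice farthest from the median of the member, these coefficients were 0.70, 0.62 and 0.50 for Kcnj6 and 0.81, 0.61 and 0.70 for Kcnj11. They are the highest of 10609 values over the same 16 libraries and are given as a description with no test.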

How the data were processed

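The authors dissected substantia nigra tissue, precipitated the tagged ribosomes and sequenced the polyA RNA. Reads were trimmed of adapters, aligned to mm10 with STAR and counted per Ensembl gene with HTSeq, and the authors deposited the raw counts of each of the 16 mice. The annotation release and the use of strand are not given in the sources used here. Of 25006 identifiers, 24942 were matched to a symbol in GENCODE M21 (GRCm38), from which coordinates, exon lengths and sequences were taken.

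Counts were tested with edgeR 4.0.16 in R 4.3.3 (quasi-likelihood F-test, TMM, filterByExpr by genotype, Benjamini-Hochberg over 12390 genes, threshold 0.05). Intervals are 95%. DESeq2 1.42.0, limma 3.58.1, other scalings and filters, a replicate block and leaving out each mouse were alternatives, and other lengths in MCU-KO mice were added after seeing the data. Subunit ratios used counts plus 1 per kilobase of exon with exact permutation tests (256 sign patterns within a genotype, 12870 splits between them). The scripts were tested on simulated data.

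Named genes were the 8 members, Mcu, in each list of related genes those past the threshold or, with none, the one of smallest p, and the 3 genes most correlated with the GIRK and the K-ATP gene highest per kilobase in control mice. The members and lists were chosen with earlier results of these data known. Each library was 1 mouse, and no libraries were identical. The shared mouse numbers were checked for pairing: same-numbered mice deviated with correlations of -0.0612 to 0.0309, none over 0.1, so the numbers are names only.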

Additional observations from a re-analysis of the deposited data

Results flagged for a closer look

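In all, 29 groups of 8 mice were looked at (the members, the named gene of each related list and Mcu, by genotype). Of these, 4 had 1 mouse whose gap to the nearest other mouse was large against the group's range by Dixon's 95% limit. For normally distributed values chance alone would give about 1.4. Counts with many 0s are not so distributed, so the flags cannot be set against that number. Kcnj5 had 128.5 normalized counts in control mouse 5 and 0 in the other 7 control mice. Abcc9 had 288.8 normalized counts in control mouse 7, and the next control mouse had 107. Kcnj12 had 22.64 normalized counts in control mouse 4, below the next lowest control value of 345.5. The same gene had 761.7 normalized counts in MCU-KO mouse 2, above the next highest MCU-KO value of 225.9. MCU-KO mouse 2 was also the mouse with 6 counts of Kcnj3 and 0 of Abcc8.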

How the results depend on the processing

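No member passed an adjusted p under 0.05 in any of 23 alternatives (edgeR with other scalings, filters or mice, DESeq2 and limma-voom), and Gnb1 stayed called in all of them. The number of genes called over the whole table was 22, 90 with DESeq2, 14 with the replicate block, and 18 to 24 when 1 mouse was left out. The block on the mouse number has no basis in the design, since the numbers did not pair the mice and 0 of 8 mice correlated best with their own number. Kcnj6, Kcnj9 and Kcnj11 kept their direction in all 23 alternatives, and Kcnj3 in the 22 that tested it (a filter of 10 counts in every mouse removed it). The log2 fold change of Abcc8 was 0.21 with the replicate block, 0.83 with limma-voom, and -0.27 to 0.23 when 1 mouse was left out, and the cause was not tested.

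Of the ratios within control mice, Kcnj9/Kcnj6 was -1.30 with the longest coding transcript as length and 0.59 in MCU-KO mice, where it became -0.33 with the longest coding transcript and -0.25 without division by length (added after seeing the data). Abcc9/Abcc8 was -4.23 in MCU-KO mice, where it passed. Abcc9/Kcnj8 was 0.018 with a pseudocount of 0.5, 1.40 without division by length, and -1.11 to 0.98 when 1 control mouse was left out. Of the differences between genotypes, Kcnj8/Kcnj11 was -0.027 with a pseudocount of 5. With 1 mouse left out it ran from -0.48 to 1.04, Abcc8/Kcnj11 from -0.66 to 0.84, Kcnj5/Kcnj6 from -0.66 to 0.41, Kcnj3/Kcnj9 from -0.75 to 0.15 and Kcnj5/Kcnj3 from -1.54 to 0.031. None of these 5 passed in any alternative. A 2-fold change lay inside the interval for all tested members except Kcnj6. A 0 allows up to 3 counts, a bound that covers counting error only.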
